A study of Mus musculus with 2 samples.

Results

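The 6 genes described here are the transcripts by which neurons that release glutamate are commonly told from neurons that release GABA. *Slc17a6*, *Slc17a7* and *Slc17a8* encode the vesicular glutamate transporters VGLUT2, VGLUT1 and VGLUT3. *Gad1* and *Gad2* encode the enzymes GAD67 and GAD65, which make GABA from glutamate, and *Slc32a1* encodes VGAT, the transporter that loads GABA and glycine into vesicles. They were chosen by gene symbol, and all 6 were found among the 32285 genes of the count matrices. They were measured in hippocampal Cajal-Retzius (CR) cells, the early-born, reelin-secreting neurons that line the hippocampal fissure.

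The cells came from mice at postnatal day 14 and were captured as 2 droplet libraries of single-cell RNA-sequencing, 1 per genotype. The control library came from 4 pooled *ΔNp73-Cre; Cicflox/+; tdT* mice (3 males and 1 female), which are conditional heterozygotes and not wild type. The knockout library came from 4 pooled *ΔNp73-Cre; Cicflox/flox; tdT* littermates (2 males and 2 females). Both carry the same Cre driver, a tdTomato reporter and at least 1 floxed allele of *Cic*, which encodes the transcriptional repressor Capicua. Cre under *ΔNp73* control acts in the CR cell lineage, so *Cic* was deleted there and not throughout the hippocampus. Cells in which the deletion did not occur can be present. The paper's staining of this line, at a later age, found CIC lost from most but not all hippocampal CR cells. Live tdT+ cells (DAPI-) were sorted before capture, so the pools hold no neurons without the reporter by design. With 1 library per genotype there is no replicate error, and no test or p-value is given. Each interval below is an exact 95% interval that covers counting error only, and each ratio between genotypes compares these libraries.

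A neuron is glutamatergic or GABAergic chiefly by what it can load into its synaptic vesicles. Any cell contains glutamate as a metabolite, but release from vesicles requires a vesicular glutamate transporter. GABA transmission requires a GAD enzyme to make the transmitter and VGAT to load it. Mature cortical and hippocampal pyramidal cells and granule cells use mainly VGLUT1, many subcortical and early-developing neurons use VGLUT2, and VGLUT3 is typical of neurons that also use another transmitter. CR cells are regarded as glutamatergic, and they respond to GABA released by others.

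In GENCODE M21 on the GRCm38 build, *Slc17a6* lies on chromosome 7 at 51622006 to 51671119 on the plus strand. *Slc17a7* lies on the same chromosome at 45163949 to 45176142 (plus strand), and *Slc17a8* on chromosome 10 at 89574020 to 89621253 (minus strand). The GABA genes all lie on the plus strand of chromosome 2, *Gad2* at 22622205 to 22693874, *Gad1* at 70553072 to 70602014 and *Slc32a1* at 158610767 to 158615748. An antisense gene overlaps *Gad1* (*Gad1os*, 1 UMI in the control cells and 0 in the knockout cells) and another overlaps *Slc32a1* (*Gm14205*, 0 UMIs in both), so these neighbours took almost no counts.

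Because the libraries differ in *Cic*, the 250 bases before each annotated start were searched for the octamers that Capicua is known to bind, TGAATGAA and TGAATGGA, on both strands. RefSeq held 8 such windows for the 6 genes on GRCm38.p6, and none contained either octamer, against 2.07% of all 32851 windows. This says only that these letters are not in these windows. The window before the first annotated start of *Slc17a6*, the member with by far the most UMIs in CR cells, is shown for orientation, at chr7:51621580-51621829 on the plus strand, all in lower case since no motif was found.
Slc17a6: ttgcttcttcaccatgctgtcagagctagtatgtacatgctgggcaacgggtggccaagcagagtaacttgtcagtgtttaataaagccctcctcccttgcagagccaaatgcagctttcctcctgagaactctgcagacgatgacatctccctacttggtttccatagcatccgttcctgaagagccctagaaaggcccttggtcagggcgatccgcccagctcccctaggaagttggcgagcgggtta

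Cells were taken as barcodes with at least 2000 unique molecular identifiers (UMIs, each standing for 1 captured RNA molecule) and at least 5 UMIs of *Reln*. This gave 1003 control cells with a median of 6224 UMIs (range 2012 to 31769) and 390 knockout cells with a median of 6664 (range 2769 to 33453). No barcode sequence was shared between the selected cells of the libraries. Each of 8 CR markers was detected in 25% of cells or more in both libraries, which the selection fixed for *Reln*. *Trp73*, which was not used in the selection, was found in 88.7% of control and 92.3% of knockout cells. Free RNA also held these markers, as described with the droplets. *Trp73*, *Calb2*, *Lhx1*, *Lhx5* and *Tbr1* were at a higher CPM in droplets than in cells of both libraries. Of 8 markers of GABAergic interneurons, 0 reached 25% of cells. *Sst*, *Vip*, *Npy*, *Lhx6*, *Dlx1* and *Dlx6os1* were at 0 UMIs in both libraries, and the summed level of all 8 was 12.1 and 9.04 CPM. Most of that sum was *Adarb2*, at 10.3 and 7.95 CPM (68 and 22 UMIs), above its level of 1.84 and 3.29 CPM in the droplets. *Pvalb* gave 12 and 3 UMIs, and its CPM was lower in cells than in droplets. CPM stands for UMIs per 1000000 UMIs outside mitochondrial and ribosomal protein genes. *Slc1a2*, *Cspg4* and *Rgs5*, from the astrocyte, oligodendrocyte-lineage and vascular lists, were the only markers of other cell types found in 25% of cells. *Cic* itself was at 58.9 CPM in control cells and 51.3 CPM in knockout cells, with a ratio of 0.871 (0.714 to 1.06), so a difference was not detectable at this depth. UMIs are read near the 3′ end of a transcript and do not show whether the floxed exons were present.

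*Slc17a6* was the leading gene of the 6 in both genotypes, and the GABA genes were close to the lowest level that can be counted. *Slc17a6* gave 3368 UMIs in the control cells, 510.2 CPM (493 to 528), and 1245 UMIs in the knockout cells, 450.1 CPM (426 to 476). Its UMIs made up 98.0% (97.4 to 98.4) of all 3438 UMIs of the 6 genes in the control and 97.6% (96.7 to 98.4) of 1275 in the knockout. The 3 GABA genes together made up 0.204% (0.0819 to 0.419) and 0.157% (0.0190 to 0.566). These shares compare captured molecules, and capture can differ between genes. Whether intronic reads were counted is not given, and the genes run from 4982 (*Slc32a1*) to 71670 bases (*Gad2*). The part that gene length plays in the shares was not tested.

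**Figure D1:**
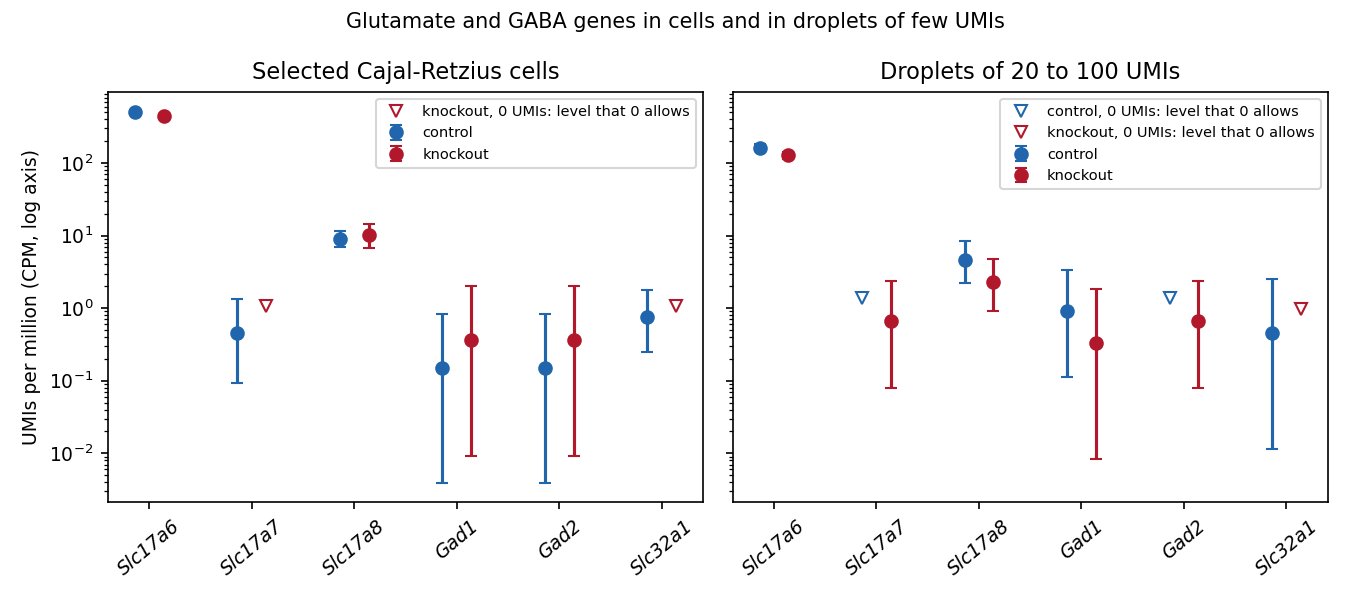
Level of each of the 6 genes, in CPM on a log axis, in the selected Cajal-Retzius cells (left) and in droplets of 20 to 100 UMIs (right), for the control (blue) and knockout (red) library. Points are summed UMIs with exact 95% Poisson intervals, and open triangles mark genes with 0 UMIs at the level that a count of 0 allows. Slc17a6 lies at 510.2 and 450.1 CPM in the cells, Slc17a8 near 10 CPM, and the other 4 genes at or below about 1 CPM.

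VGLUT2 RNA was found in the great majority of CR cells. A UMI of *Slc17a6* was present in 918 of 1003 control cells, 91.5% (89.6 to 93.2), and in 347 of 390 knockout cells, 89.0% (85.4 to 91.9). A control cell held 3.36 UMIs on average, with a median of 3, quartiles of 2 and 5 and a highest count of 15. A knockout cell held 3.19 on average, with a median of 3, quartiles of 1 and 4 and a highest count of 17. The distributions overlap across almost their whole range.

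The share of cells without a *Slc17a6* UMI was somewhat above what counting leaves. Counting alone, at each cell's own depth and the library's mean level, would leave 6.48% of control and 7.28% of knockout cells without a UMI, where 8.47% and 11.0% had none. These cells were also shallower, with median depths of 4982 and 5662 UMIs against 6386 and 6828 in cells that had one. The variance of *Slc17a6* UMIs over cells was 1.96 times the mean in the control and 2.40 times in the knockout, where depth differences alone give 1.70 in both. The spread between cells was thus somewhat wider than counting and depth give, and more so in the knockout. In the knockout 3 cells held 17 UMIs each, where the next highest count was 13. Their part in the knockout variance was not tested. When every cell was thinned to the same 2000 UMIs, with no cell lost, 61.0% (57.9 to 64.1) of control and 53.8% (48.8 to 58.9) of knockout cells kept a UMI.

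**Figure D2:**
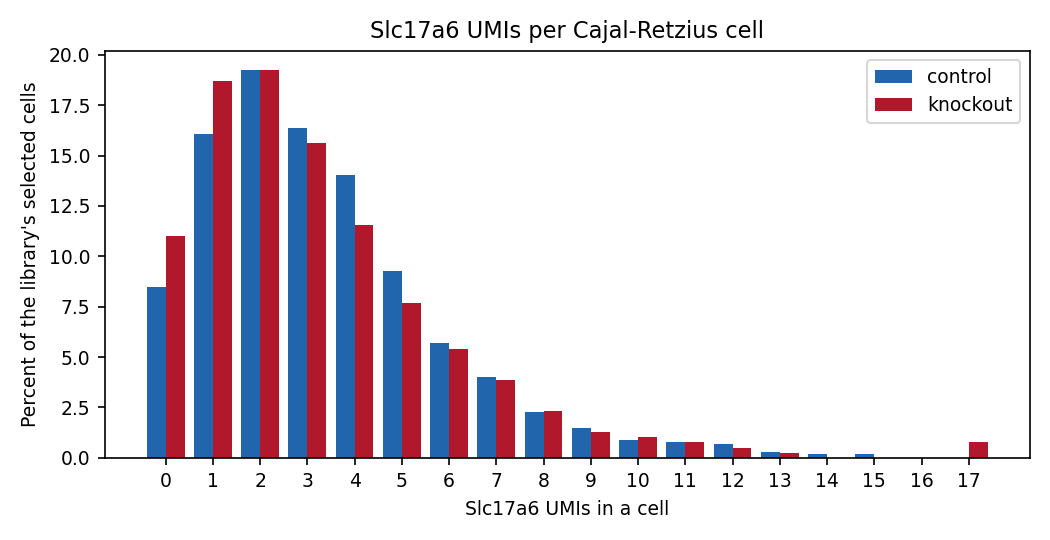
Percent of each library's selected cells (y axis) by the number of Slc17a6 UMIs in the cell (x axis), for 1003 control cells (blue) and 390 knockout cells (red). Both libraries peak at 2 UMIs, and the knockout has more cells at 0 (11.0% against 8.47%).

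Free RNA that leaks from damaged cells enters every droplet, so the same genes were measured in droplets of 20 to 100 UMIs (29040 control and 75813 knockout, median depths 89 and 44 UMIs). *Slc17a6* was at 162.5 CPM (146 to 180) in the control droplets and 127.7 CPM (115 to 141) in the knockout droplets. A *Slc17a6* UMI was present in 1.17% and 0.471% of droplets, with a mean of 0.0122 and 0.00512 UMIs per droplet against 3.36 and 3.19 per cell. The level in cells was 3.14-fold (2.81 to 3.51) that in droplets in the control and 3.53-fold (3.14 to 3.96) in the knockout. The selection gene *Reln* was at 8.54-fold and 8.94-fold its droplet level, and the CR markers *Trp73* (0.572 and 0.576) and *Calb2* (0.183 and 0.221) were lower in cells than in droplets. *Slc17a6* thus lay between these markers in its level in cells over droplets. Among all genes compared, 30.9% in the control and 28.5% in the knockout were at least 2-fold higher in cells, and 23.3% and 24.9% were at least 2-fold lower. The factor moved with the droplets chosen. It was 2.04 (0.990 to 5.08) in the control when droplets of 10 to 50 UMIs were used, an interval that includes 1, and 3.95 in the knockout.

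Barcodes between cells and droplets also held *Slc17a6*. In those of 500 to under 2000 UMIs (191 control, 51 knockout), its level was 879.5 CPM (735 to 1044) in the control and 472 CPM (284 to 738) in the knockout. The faint control barcodes were 1.72-fold (1.44 to 2.05) above the control CR cells, and the faint knockout barcodes 1.05-fold (0.630 to 1.65). Faint barcodes were not selected by *Reln*, which was found in 77.0% of the control and 52.9% of the knockout ones. *Apoe*, from the astrocyte list, was at 5290 CPM in the faint control barcodes and 30.9 CPM in the control CR cells. The faint class can thus hold other cell types. Mitochondrial genes took 11.0% and 14.2% of the UMIs of these faint barcodes, against 2.98% and 3.62% in the cells, and their part in the difference was not tested. Deep barcodes with under 5 *Reln* UMIs numbered 8 and 16, and *Slc17a6* was found in 1 and 4 of them, at 27.2 CPM (0.689 to 152) and 127 CPM (46.5 to 276). *Slc17a6* was thus lower in the few deep barcodes of low *Reln* count than in CR cells of the same library. In the 8 control ones *Ttr*, an ependymal and choroid marker, was at 97461 CPM and found in 4. It was at 3.33 CPM in the control CR cells, so these barcodes can hold other cell types.

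*Slc17a7*, the VGLUT1 gene of mature pyramidal and granule neurons, gave almost no UMIs. The control cells held 3 UMIs in 2 cells, 0.199% (0.0242 to 0.718), and the knockout cells held none. The count of 0 in 390 knockout cells allows a share of cells with a UMI of up to 0.769%, and cells that express the gene at a low level could give none. Droplets held 0 UMIs in the control and 2 in the knockout, so a difference between cells and droplets was not detectable in either library. Both control cells with *Slc17a7* also held *Slc17a6*.

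*Slc17a8*, the VGLUT3 gene, was the only other member above the counting floor in both libraries. It gave 60 UMIs in the control, 9.09 CPM (6.94 to 11.7), and 28 UMIs in the knockout, 10.1 CPM (6.73 to 14.6). A UMI was found in 48 control cells, 4.79% (3.55 to 6.30), and in 21 knockout cells, 5.38% (3.36 to 8.11). Most of these cells held a single UMI, with 2 or more in 9 control and 5 knockout cells and a highest count of 4 and 3. Its level in cells was 1.98-fold (1.01 to 4.34) that in droplets in the control and 4.40-fold (1.88 to 11.9) in the knockout, from 10 and 7 droplet UMIs.

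*Slc17a8* was found in cells that also held *Slc17a6*, not in place of it. Of the cells with *Slc17a8*, 47 of 48 in the control (97.9%) and 21 of 21 in the knockout had a *Slc17a6* UMI, against 91.2% and 88.3% of cells without *Slc17a8*. After thinning to 2000 UMIs the shares were 66.7% (51.6 to 79.6) against 60.7% in the control and 71.4% (47.8 to 88.7) against 52.8% in the knockout. At equal depth the intervals include the share of the other cells, so more frequent detection of *Slc17a6* beside *Slc17a8* was not detectable.

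As a share of RNA, the GABA genes were not detectably higher in cells than in droplets. *Gad1* and *Gad2* each gave 1 UMI in the control cells and 1 in the knockout cells, and *Slc32a1* gave 5 and 0. Summed, they reached 1.06 CPM (0.426 to 2.19) in the control and 0.723 CPM (0.0876 to 2.61) in the knockout. Droplets held 3 UMIs of the GABA genes in each library, 1.38 CPM (0.284 to 4.02) and 0.987 CPM (0.204 to 2.89). Cells were at 0.770 (0.176 to 4.61) and 0.732 (0.0612 to 6.39) of the droplet level. No enrichment of GABA transcripts in CR cells, as a share of RNA, was detectable in either genotype. Per barcode, cells held a mean of 0.00698 (control) and 0.00513 (knockout) summed GABA UMIs. Droplets held 0.000103 and 3.96e-05. The part of free RNA in the few UMIs of the cells was not tested.

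A GABA gene was seen in 7 control cells, 0.698% (0.281 to 1.43), and 2 knockout cells, 0.513% (0.0622 to 1.84), each with a single UMI. In droplets, which are far shallower, the share was 0.0103% and 0.00396%. No cell held 2 or more summed GABA UMIs, which allows a share of cells with that many of up to 0.299% in control and 0.769% in knockout cells. Of the cells with a GABA UMI, 6 of 7 control cells and 2 of 2 knockout cells also held *Slc17a6*, with 1 to 7 UMIs. All but 1 control cell had *Trp73*. That cell was the shallowest of them, with 2117 UMIs in all, 16 of *Reln* and 1 of *Slc32a1*. Neither *Trp73* nor *Slc17a6* was counted in it.

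The *Slc17a6* level was slightly lower in the knockout library. The ratio of knockout to control was 0.882 (0.826 to 0.942), a log2 ratio of -0.18, where the median over 11194 genes with at least 50 UMIs was 0.01. Of those genes, 4.38% were at least 1.5-fold higher in the knockout and 2.97% at least 1.5-fold lower, and *Slc17a6* was in neither set. Of the 1823 genes that reached 1000 UMIs, 23.0% had, like *Slc17a6*, an interval below 1, and 15.6% had a ratio as low or lower. A difference of this size was therefore common between these libraries. The droplets differed the same way, with a ratio of 0.786 (0.679 to 0.910). *Slc17a8* was at 1.11 (0.685 to 1.77) of the control, and the summed GABA genes at 0.682 (0.0691 to 3.58). Neither interval leaves out 1, and the latter spans everything from a large fall to a rise of over 3-fold.

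The *Slc17a6* ratio differed with the depth of the cells. In cells of 2000 to under 5000 UMIs (247 control, 71 knockout) *Slc17a6* was at 542 CPM in the control and 346 in the knockout, a ratio of 0.638 (0.508 to 0.795). In cells of 5000 to under 10000 UMIs (643 and 260) it was at 528 and 468 CPM, with a ratio of 0.886 (0.816 to 0.961). In cells of 10000 UMIs and over (113 and 59) it was at 439 and 449 CPM, with a ratio of 1.02 (0.895 to 1.17). The intervals of the shallowest and the deepest cells do not overlap, but they leave out the wider spread between cells described above. The deepest cells gave no lower level in the knockout. The deepest cells were at 0.810 (0.720 to 0.911) of the shallowest in the control and at 1.30 (1.03 to 1.65) in the knockout, where the middle class was the highest. In the shallowest cells *Reln*, which the selection used, was at 7699 CPM (7523 to 7878) in the control and 7526 CPM (7207 to 7856) in the knockout. *Trp73*, which was higher in droplets than in cells, was at 518 CPM (473 to 566) and 482 CPM (404 to 571). Mitochondrial genes took 3.55% and 3.97% of the UMIs of the shallowest cells. Not every CR marker was at a like level, since *Calb2* over all selected cells had a knockout to control ratio of 1.54 (1.36 to 1.74). The ratios by depth were added after the data had been seen, and the part that depth plays in the difference was not tested.

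**Figure D3:**
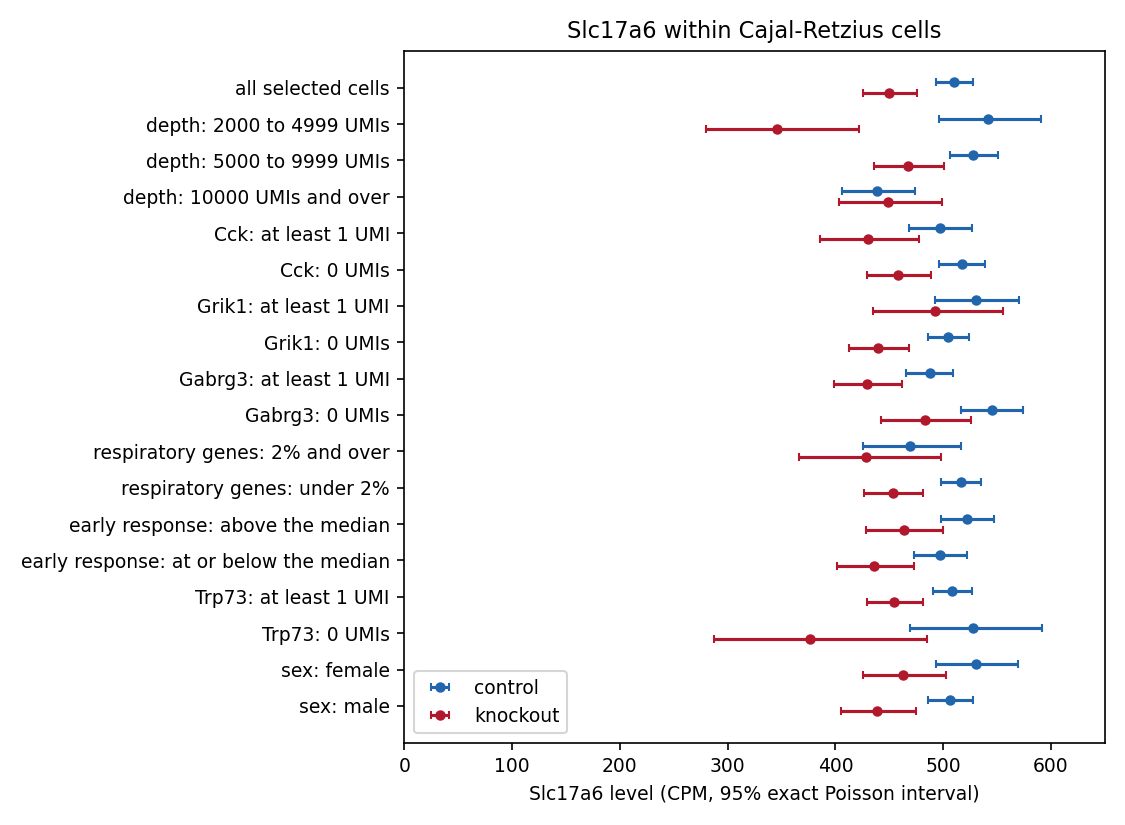
Slc17a6 level (x axis, CPM, with exact 95% Poisson intervals) in all selected Cajal-Retzius cells and in subgroups of them (y axis), for the control (blue) and knockout (red) library. The knockout lies below the control in 16 of the 17 subgroups, the exception being cells of 10000 UMIs and over (439 and 449 CPM). The subgroups divide the same cells again and again, so they overlap and are not separate observations.

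Across the other ways of dividing the cells, *Slc17a6* varied little. The cells were divided in 8 ways in each library, by depth, by a UMI of *Cck*, *Grik1*, *Gabrg3* or *Trp73*, by respiratory chain genes, by early response genes and by sex, which gave 16 ratios. The interval left out 1 in 4 of them, the depth ratios above and the division by *Gabrg3*. *Slc17a6* was at 487 CPM in control cells with *Gabrg3*, which encodes a GABA-A receptor subunit, and at 545 CPM in those without, a ratio of 0.894 (0.835 to 0.958). In the knockout the levels were 429 and 483 CPM, a ratio of 0.888 (0.793 to 0.996). Cells with and without *Gabrg3* had median depths of 6488 and 5859 UMIs in the control, and 6703 and 6609 in the knockout. The part of depth in the *Gabrg3* ratios was not tested. Cells with and without *Cck*, a neuropeptide gene, differed by less than counting error, with ratios of 0.961 and 0.938. Cells of female and male origin, told apart by sex-linked transcripts, gave ratios of 1.05 in both libraries. Between genotypes the ratio was 0.866 (0.792 to 0.947) in male and 0.872 (0.781 to 0.974) in female cells, below 1 in both. The sexes are parts of the same pooled libraries and not replicates, and the control pool held 1 female mouse.

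*Slc17a8* was less evenly spread. In cells with *Gabrg3* it was at 6.77 CPM (control) and 4.16 CPM (knockout), against 12.6 and 19.4 CPM in cells without. The ratios were 0.535 (0.310 to 0.918) and 0.214 (0.0770 to 0.524), lower by UMIs in *Gabrg3* cells of both libraries. Of the *Slc17a8* UMIs, 21 of 60 (control) and 12 of 28 (knockout) lay in cells with at least 2, which these intervals do not cover. Counted by cells with a UMI, the control shares were 3.86% (2.43 to 5.79) with *Gabrg3* and 6.0% (3.96 to 8.7) without, with overlapping intervals. The knockout shares were 2.17% (0.71 to 5.0) and 10.0% (5.8 to 15.7). Control cells with *Grik1*, a kainate receptor subunit gene, had 16.7 CPM of *Slc17a8* against 7.08 in those without, a ratio of 2.36 (1.34 to 4.07). By cells with a UMI, the control shares were 8.25% (4.79 to 13.1) with *Grik1* and 3.96% (2.72 to 5.54) without, again overlapping. In the knockout the ratio was 1.13 (0.376 to 2.88). The *Gabrg3* ratios and the control *Grik1* ratio were the 3 of 16 ratios for *Slc17a8* whose interval left out 1.

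No gene followed *Slc17a6* closely from cell to cell. Among 4690 genes found in at least 20% of cells of both libraries, none reached a Pearson correlation of 0.2 with it in both. These correlations were computed over 1003 control and 390 knockout cells on log-scaled CPM, and the cells of a library share its depth structure and free RNA.

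The genes that supply glutamate and take it up ranged from near 0 to the level of *Slc17a6* and above. Of 16 such genes, 7 were found in 25% of control cells and 8 in 25% of knockout cells. Of the 14 that had at least 50 UMIs, 1 was at least 1.5-fold higher in the knockout, against 4.38% of all genes compared, and 0 were lower, against 2.97%, with a median log2 ratio of 0.13. The highest was *Slc38a2*, a neutral amino acid transporter that carries glutamine into neurons, at 804.5 CPM (control) and 726 CPM (knockout; ratio 0.903, 0.857 to 0.951). Its ratio was close to that of *Slc17a6*. *Slc1a4*, another neutral amino acid transporter, was at 143 and 129.8 CPM, and the glutamine transporter gene *Slc38a1* at 110.1 and 101 CPM, with intervals of the ratio that include 1. In droplets *Slc38a2* was at 264 and 204 CPM, *Slc1a4* at 31.2 and 37.5 CPM and *Slc38a1* at 51.9 and 55.9 CPM, each lower than in cells. *Got1*, an aspartate aminotransferase gene, was at 113 and 117 CPM in droplets and 30.8 and 39.8 CPM in cells. Other genes of the list, among them *Got2*, *Glul*, *Glud1* and *Slc25a22*, were also higher in droplets than in cells in both libraries. *Gls2*, a glutaminase gene, was the gene past 1.5-fold, at 6.21 and 9.40 CPM, and its interval includes 1 (ratio 1.51, 0.889 to 2.53).

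Genes that remove GABA showed no member past 1.5-fold among those with enough counts. *Abat*, the transaminase that breaks down GABA, was at 124 CPM in control cells and 104 CPM in knockout cells (ratio 0.838, 0.730 to 0.960), but at 164 and 165 CPM in droplets. As a share of RNA, *Abat* was thus not enriched in cells over droplets. *Aldh5a1* and *Aldh9a1*, aldehyde dehydrogenase genes of GABA metabolism, were below 15 CPM in both libraries. Of the 8 genes of this list, 4 had at least 50 UMIs, 0 passed 1.5-fold in either direction (4.38% of all genes higher, 2.97% lower), and the median log2 ratio was -0.13. *Maob*, which had under 50 UMIs, was at 2.27 and 5.79 CPM (15 and 16 UMIs, ratio 2.55, 1.18 to 5.53), and at 4.59 and 11.2 CPM in droplets.

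Transcription factors of GABAergic lineages gave almost no counts, and several of glutamatergic lineages were counted, in droplets as well as in cells. Of 18 factors of GABAergic lineages, 14 were at 0 UMIs in each library, and the list summed to 19 control and 7 knockout UMIs (2.88 and 2.53 CPM). The control UMIs were those of *Sox6* (8 control and 4 knockout UMIs), *Sp9* (7 and 0), *Maf* (3 and 0) and *Npas1* (1 and 0). Of 17 factors of glutamatergic lineages, 9 had at least 50 UMIs, with a median log2 ratio of 0.05. *Ebf3* was at 855 CPM in the control and 841 in the knockout, *Emx2* at 349 and 385, *Nhlh2* at 243 and 270.1, and *Lhx1* at 219 and 219.8, all of them factors of CR cells or their hem origin. In droplets *Ebf3* was lower than in cells (431 and 414 CPM), and *Emx2* (519.6 and 536), *Nhlh2* (745 and 1001) and *Lhx1* (447 and 491) were higher. None of the 9 was at least 1.5-fold higher (4.38% of all genes) and 1 was lower (2.97% of all genes), *Lhx9*, at 15.8 and 10.1 CPM (ratio 0.643, 0.408 to 0.983). In droplets *Lhx9* was at 23.4 and 22.4 CPM, higher than in cells.

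Markers of other transmitters were low or missing. Of 17 genes, 8 were at 0 UMIs in the control and 7 in the knockout, among them *Chat* (acetylcholine), *Th* and *Dbh* (catecholamines), *Hdc* (histamine) and *Slc30a3* (the vesicular zinc transporter), at 0 in both. Only 3 had at least 50 UMIs. *Slc18b1*, a vesicular polyamine transporter gene, was at 22.7 CPM in control and 14.8 CPM in knockout cells (ratio 0.652, 0.450 to 0.927). *Slc6a5*, the glycine transporter GlyT2, was at 5.76 and 10.1 CPM (ratio 1.76, 1.04 to 2.94). In droplets *Slc18b1* was at 17.4 and 13.2 CPM and *Slc6a5* at 2.3 and 1.97 CPM. *Slc18a2*, the vesicular monoamine transporter VMAT2, was at 8.33 and 7.23 CPM, above its droplet levels of 0.918 and 0.987 CPM. Of the 3 compared, 1 was thus past 1.5-fold in each direction, where 4.38% of all genes were higher and 2.97% lower, with a median log2 ratio of -0.20. *Slc17a9*, a vesicular nucleotide transporter of the same family as the VGLUTs, had under 50 UMIs, at 2.27 and 5.79 CPM (15 and 16 UMIs, ratio 2.55, 1.18 to 5.53).

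**Figure D4:**
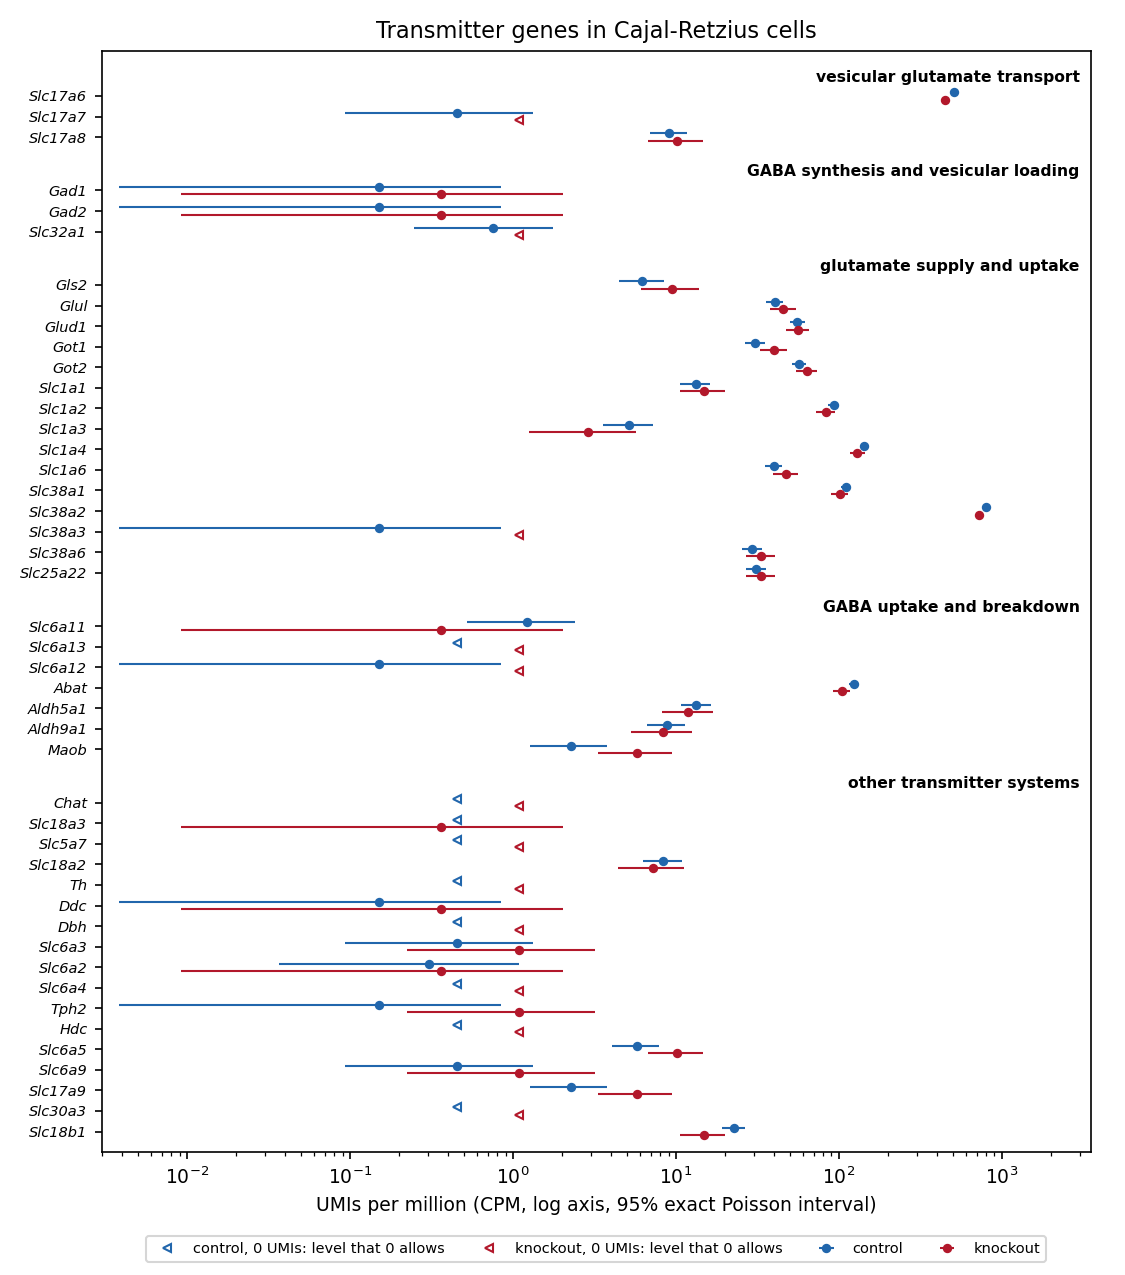
Level of transmitter genes in Cajal-Retzius cells (x axis, CPM on a log scale, with exact 95% Poisson intervals), by gene and list (y axis), for the control (blue) and knockout (red) library. Open triangles mark genes with 0 UMIs at the level that a count of 0 allows. Slc38a2 and Slc17a6 lie furthest to the right, and Gad1, Gad2 and Slc32a1 lie at about 1 CPM or below.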

How the data were processed

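The authors deposited raw counts of UMIs per gene and barcode for every barcode with a UMI (10x 3′ v3.1 chemistry), without cell calling or normalization. The matrix header names Cell Ranger 4, the submitters' processing notes name Cell Ranger 8.0.1 and mm39, and the paper names another version on mm10. Whether intronic reads were counted, and on which strand, is not given in the sources used here, so overlapping genes are uncertain. Cells were barcodes with at least 2000 UMIs and at least 5 *Reln* UMIs. The libraries held 16336796 (control) and 6777071 (knockout) UMIs. Doublets were treated only in an alternative, which removed the 8 control cells and 1 knockout cell of highest Scrublet score (scanpy 1.11.5).

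UMIs were summed per library and divided by all UMIs outside mitochondrial and ribosomal protein genes (symbols beginning mt-, Rpl, Rps or Mrp), per 1000000 (CPM). Levels have exact Poisson intervals, shares exact Clopper-Pearson intervals, and ratios the exact interval for 2 Poisson counts (95%, scipy 1.17.1). The ratio interval was checked only on simulated Poisson counts, the model it assumes. That check does not cover wider spread between cells. Intervals and floors (3 counts for a count of 0) cover counting error only. Genotypes were compared for genes with at least 50 UMIs in both libraries together, at a fold of 1.5. Named genes were the 6 members, the 4 of each transmitter list with the most control UMIs, and every list gene past 1.5-fold with an interval leaving out 1, except genes that are not reported here. Some further list genes, such as *Gls2* and *Got1*, were named outside this rule. The 6 genes, the lists and the comparisons were chosen with earlier results of these data known. A planned comparison of cells with at least 2 GABA UMIs could not be made, since there were none.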

Additional observations from a re-analysis of the deposited data

How the results depend on the processing

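The knockout to control ratio of *Slc17a6* stayed within its counting interval under 16 of 18 alternatives. It was 0.638 in cells of 2000 to under 5000 UMIs alone and turned to 1.02 in cells of 10000 UMIs and over alone, both added after seeing the data. The cause was not tested. Thinning gave 0.838, and a minimum of 5000 UMIs gave 0.915. The summed GABA ratio stayed within its interval under 14 of 15 alternatives and was 0 in male cells alone (0 knockout UMIs). That interval, 0.0691 to 3.58, is so wide that staying within it shows little. The alternative that left out cells of 3 or more summed GABA UMIs removed no cell. It could only repeat the main value, here, for *Slc17a6* and in the comparisons with droplets. *Slc17a6* in cells over droplets was 2.04 (droplets of 10 to 50 UMIs) and 2.81 (50 to 200 UMIs) in the control and 2.76 (50 to 200 UMIs) in the knockout. The cause was not tested. The other alternatives for this factor, and those for the GABA genes over droplets that gave a value, stayed within the intervals. Droplets of 10 to 50 UMIs in the control and of 50 to 200 UMIs in the knockout held 0 GABA UMIs and gave no value. At least 1.5-fold, 490 genes were higher and 332 lower in the knockout, against 1000 and 741 with a minimum of 20 UMIs, 258 and 157 with 100 UMIs, and 117 and 60 at 2-fold. No paired analysis was possible because each genotype has 1 library. Depth limits *Slc17a7* and the GABA genes, whose counts of 0 to 5 UMIs per library cannot show a difference between genotypes.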
